A study of Mus musculus with 24 samples.

Results

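The neurotrophin genes Bdnf and Ntf3 and the receptor genes Ntrk2, Ntrk3, Ngfr and Sort1 were followed across the cell types of the mouse motor cortex and dorsal striatum. These 6 genes were chosen by symbol among the 54235 features of the count tables, and all 6 were present. The study used droplet-based single-cell RNA sequencing, in which each molecule carries a unique molecular identifier (UMI). Motor cortex came from Fos-CreER::Ai9 mice and dorsal striatum from Arc-CreER::Ai9 mice, so region and driver line cannot be told apart. In both lines a Cre recombinase driven by an activity-regulated gene switches on the Ai9 reporter, which carries tdTomato and a wpre element, when 4-hydroxytamoxifen is given. Early mice were trained for 2 days and late mice for 8 days to reach with a forelimb, control mice received 4-hydroxytamoxifen without training, and tissue was taken 3 days after labelling. Ages are not given in the sources used here. Each pool held tissue of 2 mice, collected separately by hemisphere, and each combination of region and stage had 2 pools (6 pools a region). The pool was the replicate, so the p-values below rest on these pools alone. The edgeR tests estimate the spread of a gene partly from the other genes of the fit. Their small p-values therefore do not come from the 6 pools of that gene by themselves. Where pool is a block, they concern differences within pools.

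BDNF and NT-3 are secreted growth factors that sustain neurons and tune synapses. BDNF acts mainly through the tyrosine kinase receptor TrkB (Ntrk2), NT-3 mainly through TrkC (Ntrk3), p75 (Ngfr) binds all neurotrophins, and sortilin (Sort1) sorts BDNF into the secretory pathway and is a co-receptor of p75 for the uncleaved precursors. Bdnf is transcribed in cortical neurons in response to activity, and the striatum is known to receive much of its BDNF protein from cortical axons rather than from local transcription.

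After filtering and removal of likely doublets, 98612 cells remained of 127901 barcodes, 47985 from cortex and 50627 from striatum. Library totals ran from 5260446 to 30470621 UMIs, cells per library from 467 to 6606 and median UMIs per cell from 1970 to 5520. The control 1 right-hemisphere library of the striatum was not analysed here. The protocol names 2 kit versions without assigning them to libraries. From the barcodes that libraries shared (at most 148 between any pair), control 1 and late 1 of each region formed one kit class and the other 8 pools the second, with no early pool in the first. The class followed the batch names of the labels, so kit and batch cannot be told apart. Cell types were rebuilt from marker genes and carry the suffix "-like", and the members were left out of clustering. Levels are counts per 1000000 UMIs (CPM) of a type in a pool, given as mean ± SD over pools with at least 20 cells of the type. The 3′ counts do not separate the full-length kinase form of TrkB from its truncated form or the alternative promoters of Bdnf, and no level is compared between genes.

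In GRCm38 coordinates, Bdnf (ENSMUSG00000048482) lies at chr2:109674700-109727007 on the plus strand and Ntf3 at chr6:126101412-126166910 on the minus strand. Ntrk2 lies at chr13:58806569-59133970 on the plus strand, Ntrk3 at chr7:78175959-78738012 on the minus strand, Ngfr at chr11:95568818-95587735 on the minus strand and Sort1 at chr3:108284082-108361511 on the plus strand. All 6 are protein-coding. Annotated antisense genes overlap Bdnf (Gm45346), Sort1 (Gm12523), Ntrk2 and Ntrk3, and whether counting used strand is not given in the sources used here.

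The Bdnf locus has several alternative promoters. Of the 7 RefSeq start windows of Bdnf (250 bases before to 50 after the start, GRCm38.p6), 1 held CACGTCA, the core of a calcium-response element bound by CREB-family factors. It is shown because Bdnf was the member that differed between reporter-positive and reporter-negative neurons. The counts do not separate the promoters of Bdnf, and a link between this window and that difference was not tested. The 250 bases before that start (chr2:109692186-109692435, plus strand) are printed 5′ to 3′, with CACGTCA in capitals. The match begins at base 214 of the printed run.

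Bdnf promoter: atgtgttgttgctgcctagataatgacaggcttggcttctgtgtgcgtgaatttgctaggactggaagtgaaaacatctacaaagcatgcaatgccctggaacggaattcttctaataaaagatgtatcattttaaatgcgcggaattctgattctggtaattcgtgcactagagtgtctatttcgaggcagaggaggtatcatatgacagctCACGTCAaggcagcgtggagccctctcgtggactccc

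Searched on both strands, CACGTCA was in 661 of 32851 RefSeq windows of the same length (2.01%). TGACGTCA, a full cAMP-response element which does not contain CACGTCA, was in 1.79% of windows, and the AP-1 motif TGACTCA in 5.20%. Neither was in a window of a member (7 windows of Bdnf, 2 of Ntf3, 1 of Ntrk2 and 1 of Ngfr). Windows of Ntrk3 and Sort1 were not used here. These matches describe letters and not bound sites.

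Bdnf was concentrated in the excitatory neurons of the cortex. It was highest in layer 6 intratelencephalic-like neurons, which project within the cortex and striatum, at 284 ± 20.1 CPM (SD, n = 6 pools, 4681 UMIs in 1657 cells). The superficial types followed, with 230 ± 32.7 in cells that met the markers of both layer 2/3 and layer 4/5 and 225 ± 13.4 in layer 2/3-like cells (n = 6 each). Layer 4/5-like cells held 163 ± 45.2 and layer 5 Fezf2 Bcl11b-like cells 162 ± 72.8 CPM (n = 6 each). The deep output types were lower, with 67.3 ± 11.8 in corticothalamic-like and 42.3 ± 9.36 in layer 6b-like cells, and near-projecting-like cells held 15.9 ± 8.03 CPM (n = 6 each). Bdnf therefore split layer 6, since every pool of intratelencephalic-like cells (259 to 316 CPM) lay above every pool of corticothalamic-like cells (55.7 to 84.1 CPM).

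A test for any difference among the 8 excitatory types, with pool as a block (edgeR quasi-likelihood F test), called all 4 members that could be tested, as it did 90.0% of the 13463 genes tested. The Benjamini-Hochberg adjusted p was 1.3e-47 for Bdnf. With 6 pools, an exact two-sided sign-flip test between neighbours in the order of levels cannot go below p = 0.03125. For Bdnf 5 of 19 neighbouring cortical pairs reached it, and the smallest adjusted p of this sign-flip test was 0.119, so no pair passed. With that floor an adjusted p under 0.05 needs most of the 19 pairs to reach it, so the adjusted test could decide little. The pairs were also ordered by the same levels that were then tested. The layer 2/3-like and the mixed superficial cells did not differ beyond their spread (exact p = 0.781), and neither did the layer 4/5-like and layer 5 Fezf2 Bcl11b-like cells (exact p = 0.906). The layer 5 Fezf2 Bcl11b-like cells numbered 327, with median UMIs of 1272 to 1937 per cell by pool.

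**Figure D1:**
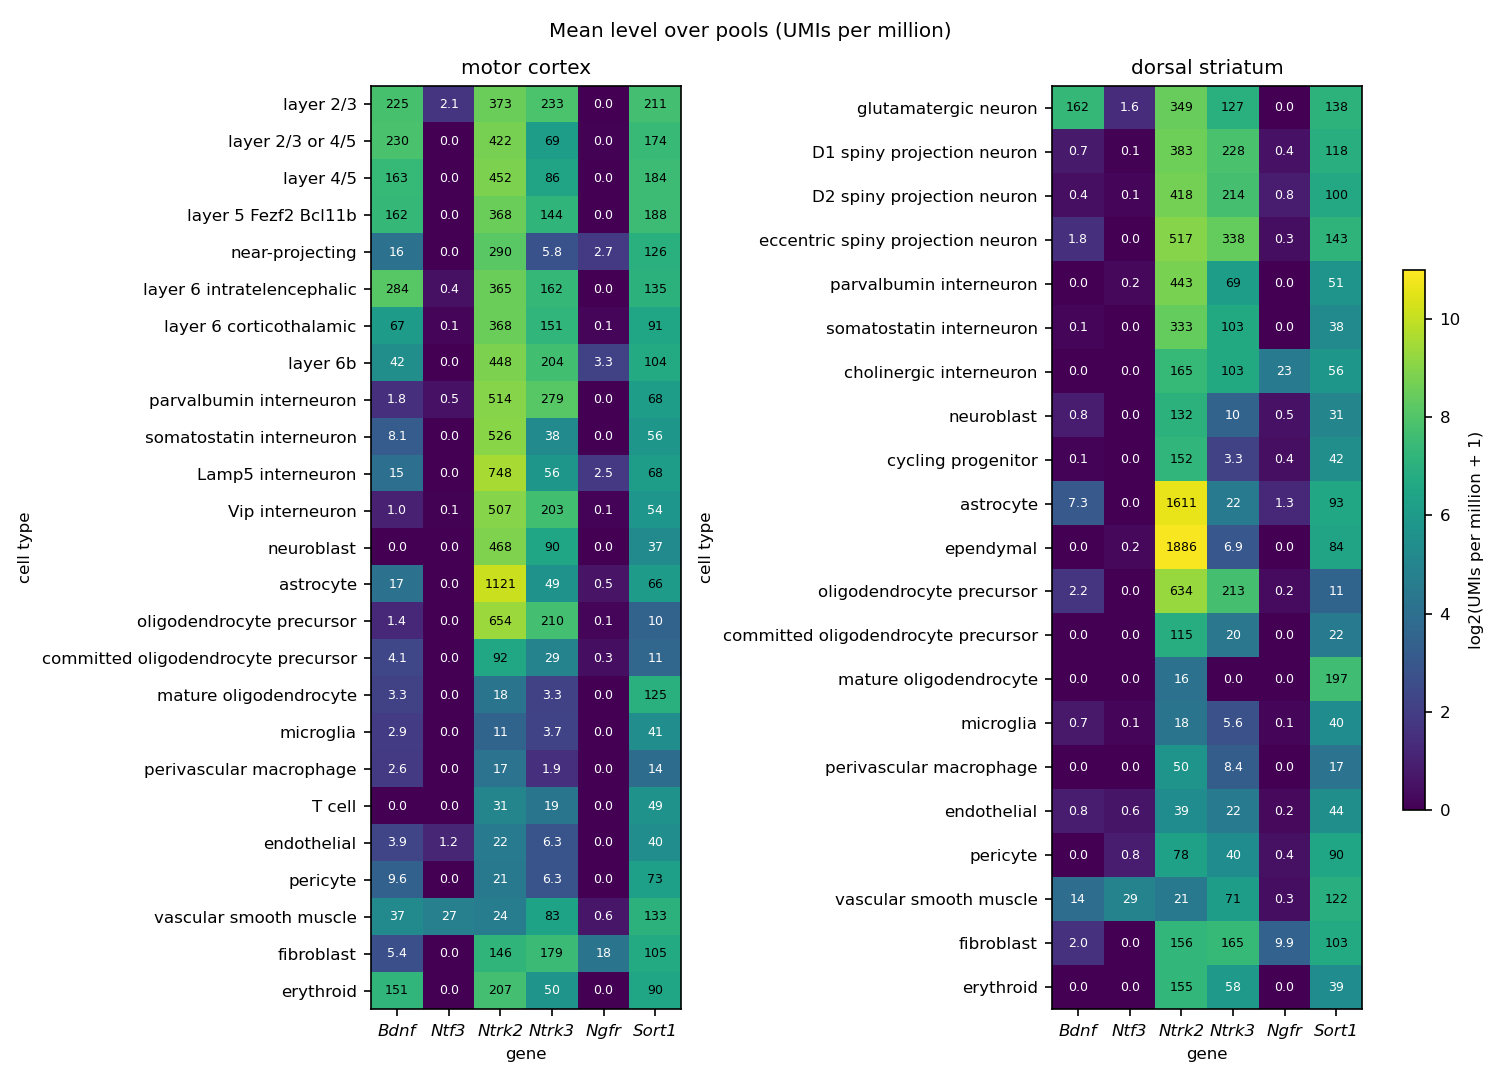
Heat map of the mean level over pools of each member (columns) in each cell type (rows) of motor cortex and dorsal striatum, with the mean CPM printed in each cell and the colour on a log2(CPM + 1) scale. Bdnf is highest in cortical excitatory types (284 CPM in layer 6 intratelencephalic), Ntrk2 in ependymal (1886 CPM) and astrocyte types, and Ntf3 in vascular smooth muscle of both regions.

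Free RNA in the droplets can place UMIs in cells that do not express a gene, so shares of cells were read beside microglia-like cells. A Bdnf UMI was found in 73.0% of layer 6 intratelencephalic-like cells and in 0.422% of microglia-like cells, whose median UMIs by pool were 5916 to 16143.5 and 1336 to 2746. Thinned to 1000 UMIs a cell, the shares were 22.5% and 0.212%. Corticothalamic-like cells kept 5.81% and layer 6b-like cells 3.40% after thinning.

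Lower levels of Bdnf appeared in cells that are not excitatory neurons. Cortical vascular smooth muscle-like cells, the contractile cells of arterial walls, held 37.4 ± 6.16 CPM (n = 6), with a UMI in 2.86% of cells after thinning. Their summed level of the 6 excitatory neuron markers was 23.8 to 86.9 CPM, close to that of microglia-like cells (33.8 to 94.3 CPM), whose Bdnf was 2.86 ± 2.06 CPM (n = 6). In the striatum the smooth muscle-like cells held 14.3 ± 8.55 CPM (n = 6, 36 UMIs in 1143 cells), and there all 6 excitatory markers were at 0 in every pool. Cortical Lamp5-like interneurons, which include neurogliaform cells, held 15.3 ± 5.13 CPM with an excitatory marker sum of 12.5 to 28.9 CPM. Cortical astrocyte-like cells held 16.5 ± 7.44 CPM (n = 6) with a marker sum of 34.0 to 156 CPM. Bdnf equalled 20.4% of that marker sum in astrocyte-like cells, 5.18% in microglia-like cells and 10.1% in layer 6 intratelencephalic-like cells, and the part of free RNA in the astrocyte value was not tested. Erythroid-like cells of the cortex held 151 ± 135 CPM (n = 4 pools) beside an excitatory marker sum of 533 to 1325 CPM, whose part in that value was not tested either.

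In the striatum, Bdnf was near 0 in the main neurons. D1-like and D2-like spiny projection neurons, the output cells of the direct and indirect pathways, held 0.719 ± 0.418 and 0.384 ± 0.242 CPM (n = 6 each), beside 0.676 ± 1.19 CPM in microglia-like cells. No Bdnf UMI was found in 224 cholinergic-like, 558 parvalbumin-like or 956 ependymal-like cells, which allows shares of cells with a UMI of up to 1.34%, 0.538% and 0.314% (a floor of 3 counts, counting error only). The highest striatal value, 162 ± 38.9 CPM (n = 4 pools, 198 cells), was in excitatory-like neurons, and whether these came from cortex at the edge of the dissection was not tested.

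Ntf3 was found mainly in a vascular cell type. Vascular smooth muscle-like cells held 26.6 ± 14.0 CPM in cortex (81 UMIs in 1165 cells) and 28.9 ± 15.0 CPM in striatum (77 UMIs in 1143 cells; n = 6 pools each). The 6 cortical pools held 22.2 and 30.1 (control 1 and 2), 53.0 and 21.8 (early) and 13.3 and 19.4 CPM (late). A UMI was found in 5.92% of these cells in cortex and 6.04% in striatum. No other type with all 6 pools in a region had a mean above 2.11 CPM, the value of layer 2/3-like neurons (67 UMIs in 3177 cells), and microglia-like cells had 0 UMIs in cortex and 1 in striatum. Vascular smooth muscle is a known source of NT-3 for sympathetic axons.

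Ntrk2, the BDNF receptor gene, was highest in cells that are not neurons. Ependymal-like cells, which line the ventricles and were found in the striatal samples, held 1886 ± 132 CPM (n = 6). Astrocyte-like cells held 1611 ± 243 CPM in striatum and 1121 ± 86.2 CPM in cortex, and oligodendrocyte precursor-like cells 634 ± 112 and 654 ± 108 CPM (n = 6 each). Astrocytes are known to carry mostly the truncated TrkB, a form these counts cannot set apart. Among cortical neurons Lamp5-like interneurons were highest at 748 ± 178 CPM, ahead of SST-like (526 ± 108), Vip-like (507 ± 120) and layer 4/5-like cells (452 ± 28.0; n = 6 each). The types highest in Bdnf were not the highest in Ntrk2, since layer 6 intratelencephalic-like cells held 365 ± 76.6 CPM and layer 2/3-like cells 373 ± 61.0 CPM (n = 6 each). The F test over the excitatory types gave an adjusted p of 2.0e-15 for Ntrk2 (edgeR). In the striatum, cholinergic-like interneurons had the lowest mean of the mature neuron types with 165 ± 47.7 CPM, and their highest pool (213) lay below the lowest pool of parvalbumin-like cells (368; 443 ± 47.2 CPM; n = 6 each). Microglia-like cells held 10.7 ± 6.63 CPM in cortex and 17.6 ± 21.6 CPM in striatum.

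Ntrk3, the NT-3 receptor gene, had a different order. In the cortex it was highest in parvalbumin-like interneurons at 279 ± 51.2 CPM (n = 5 pools), followed by layer 2/3-like neurons at 233 ± 33.4, oligodendrocyte precursor-like cells at 210 ± 53.3 and layer 6b-like neurons at 204 ± 37.2 CPM (n = 6 each). Near-projecting-like neurons stood at the other end with 5.77 ± 4.28 CPM (39 UMIs in 1102 cells), beside 3.73 ± 3.80 CPM in microglia-like cells. The layer F test gave an adjusted p of 2.3e-54 (edgeR). The lowest pool of layer 2/3-like cells was at 194 CPM and the highest pool of the mixed superficial cells at 80.2 CPM (69.3 ± 9.22, n = 6), while the Bdnf pools of these types overlapped. In the striatum, D1-like cells held 228 ± 33.0 CPM, D2-like cells 214 ± 31.0 and parvalbumin-like cells 69.1 ± 15.9 CPM (n = 6 each). Eccentric spiny projection neuron-like cells held 338 ± 13.9 CPM in the 4 pools with enough of them.

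Sort1 was broader. It was highest in layer 2/3-like neurons at 211 ± 24.6 CPM, and the remaining excitatory types ran from 91.1 ± 9.42 in corticothalamic-like to 188 ± 38.2 CPM in layer 5 Fezf2 Bcl11b-like cells (n = 6 each, adjusted p = 1.7e-28 in the edgeR layer test). Mature oligodendrocyte-like cells held 85.6 to 317 CPM in the 4 striatal and 124 to 126 CPM in the 2 cortical pools with enough of them, against 10.8 ± 2.93 and 10.4 ± 2.15 CPM in their precursors (n = 6 each), whose pools all lay lower. Smooth muscle-like cells held 122 ± 20.2 in striatum and 133 ± 24.2 CPM in cortex (n = 6 each). Microglia-like cells still held 39.9 ± 8.57 and 41.4 ± 5.33 CPM.

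Ngfr was rare. Cortical and striatal fibroblast-like cells held 17.6 ± 16.3 (15 UMIs in 301 cells) and 9.93 ± 8.98 CPM (6 UMIs in 278 cells), and layer 6b-like neurons 3.34 ± 2.55 CPM (n = 6 each). Striatal cholinergic-like interneurons had 22.9 ± 52.2 CPM (n = 6), but 61 of their 66 UMIs were in 2 of the 28 cells of the control 1 pool, and both of these cells had Chat UMIs. Cholinergic neurons of the basal forebrain, a neighbouring region, are known for high p75.

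Interneuron types also differed in the receptors. Over Lamp5-like, SST-like and Vip-like cells, the F test (edgeR, pool as a block) called all 4 members tested, against 63.3% of all 11467 genes. The adjusted p was 6.2e-35 for Ntrk3, with means of 203 ± 42.8 CPM in Vip-like, 56.4 ± 10.8 in Lamp5-like and 37.6 ± 12.5 CPM in SST-like cells (n = 6 each). Vip-like pools lay above all pools of the other 2 types. For Bdnf the adjusted p was 1.5e-12, with 15.3 ± 5.13 CPM in Lamp5-like and 1.04 ± 1.06 CPM in Vip-like cells, and for Sort1 it was 0.0338.

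In part of the types, kit class moved with the levels of Ntrk2 and Ntrk3. Ntrk2 was lower in both control 1 and late 1 than in all 4 other pools of the region in 9 of 20 cortical and 9 of 17 striatal types, and Ntrk3 in 7 and 7. The same held for Bdnf in 1 cortical and 0 striatal types and for Sort1 in 3 and 3. Both of these pools lay above the other 4 for Bdnf in 4 cortical and 0 striatal types, for Sort1 in 5 and 3, for Ntrk2 in 1 and 1 and for Ntrk3 in 2 and 1. The same count was not made over all genes. Whether these members followed kit class more than other genes did was therefore not tested. The stage comparisons within a type and the region comparisons below carry kit class as a covariate. The type by stage test carries pool as a block but no kit by type term.

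The stage comparisons asked whether the members change after 2 or 8 days of training. In the cortex, no member was called in any of 20 types (62 tests of 5 members, edgeR with stage and kit class, Benjamini-Hochberg over all genes of a type). Of all 182956 gene and type tests, 0.0202% were called between early and control, 0.0208% between late and control and 0.0115% between late and early pools. Before adjustment, 4, 5 and 1 of the member tests had p under 0.05 (6.45%, 8.06% and 1.61%, against 3.77%, 4.54% and 2.60% of all tests). DESeq2 called 0 member tests in each comparison. Within a fit the smallest adjusted p was 0.469.

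None of the 3 types with the highest Bdnf was called between stages. In layer 6 intratelencephalic-like cells the pools held 259 and 271 CPM (control 1 and 2), 280 and 316 (early) and 298 and 280 (late). In the mixed superficial cells they held 198 and 221, 262 and 212, and 279 and 208 CPM. There early 2 and late 2 lay between the controls, and the fitted differences were 0.25 (SE 0.20) for early and 0.24 (SE 0.18) for late on the log2 scale (edgeR adjusted p = 1.00 and 0.970). Within the shared batches the mixed cells held 221 in control 2 against 262 in early 1 and 198 in control 1 against 279 CPM in late 1. In layer 2/3-like cells the pools held 208 and 246, 231 and 225, and 224 and 215 CPM. The control pools of layer 2/3-like cells enclosed all 4 trained pools, and those of the intratelencephalic-like cells lay just below the lowest trained pool.

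Layer 6b-like neurons are a thin band of early-born cells above the white matter. Their pools held 31.8 and 29.4 CPM of Bdnf in controls, 48.2 and 51.2 in early and 44.5 and 48.7 in late mice. Both control pools lay below all 4 trained pools, so the order within shared batches follows from this and adds nothing to it. There control 2 held 29.4 against 48.2 in early 1, and control 1 held 31.8 against 44.5 CPM in late 1. The fitted differences were 0.73 (SE 0.23) for early and 0.65 (SE 0.22) for late on the log2 scale, and neither passed (edgeR adjusted p = 0.999 and 0.956, unadjusted 0.0079 and 0.0096).

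Corticothalamic-like cells held 56.6 and 55.7 CPM in controls, 67.6 and 84.1 in early and 61.5 and 78.6 in late mice (late against control 0.36, SE 0.16, edgeR adjusted p = 0.848). Over the alternatives that difference ran from 0.15 without control 2 to 0.51 without control 1. Lamp5-like interneurons went the other way, with 22.6 and 20.7 in controls, 13.4 and 13.3 in early and 9.64 and 12.0 CPM in late mice (late against control −0.92, SE 0.36, adjusted p = 0.928). Layer 5 Fezf2 Bcl11b-like cells held 277 and 155, 99.5 and 222, and 102 and 116 CPM, and there the early pools overlapped the controls (late against control −0.96, SE 0.35, adjusted p = 0.469). None of these 3 passed.

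**Figure D2:**
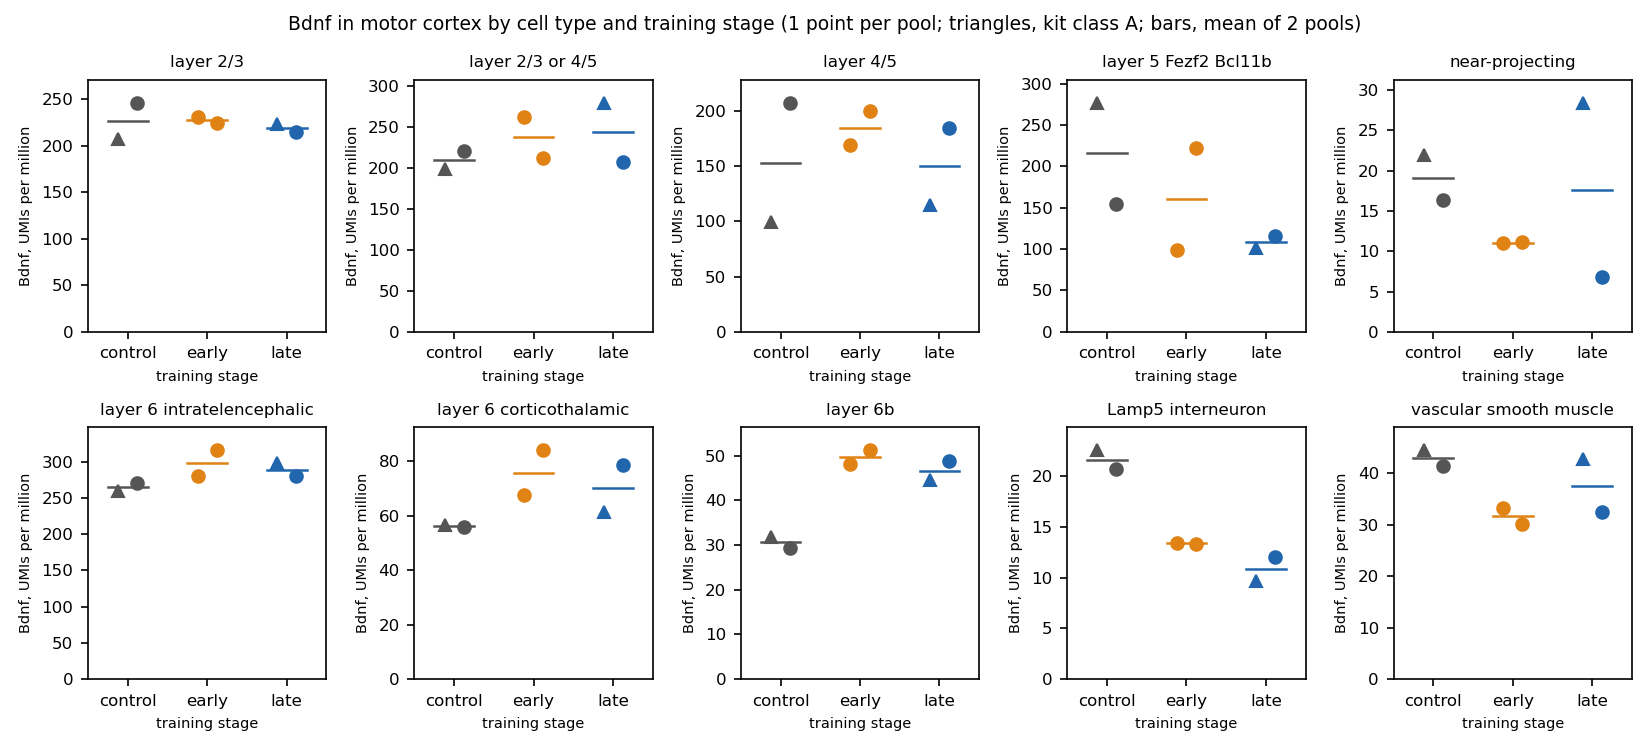
Bdnf level (CPM) by stage in the 8 cortical excitatory types, Lamp5-like interneurons and vascular smooth muscle-like cells, with 1 point per pool, triangles for the first kit class and a bar at the mean of the 2 pools. In layer 6b-like cells both controls (29.4 and 31.8 CPM) lie below the 4 trained pools (44.5 to 51.2 CPM), while layer 2/3-like pools overlap.

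Whether the stage differences themselves differed between excitatory types was tested with all type by stage terms in 1 fit (edgeR). That fit had pool as a block and no kit by type term, so kit effects that differ between types are not removed. Of 5 members tested none was called, beside 0.0970% of all 14428 genes. An unadjusted p under 0.05 was found for 2 of them, beside 4.32% of all genes, namely Ntrk3 at 0.00863 and Bdnf at 0.0457. Their Benjamini-Hochberg adjusted values in edgeR were 0.751 and 1.00. Leaving out any 1 of the 6 pools lowered the unadjusted p of Bdnf (edgeR, 1.3e-09 to 0.0206). Bdnf then passed without late 1 (adjusted p = 0.00803, edgeR) and without late 2 (5.4e-07), settings that leave 1 late pool, and over all alternatives the adjusted p ran from 5.4e-07 to 1.00. Without the shallow layer 5 Fezf2 Bcl11b-like cells the unadjusted p rose to 0.172 (edgeR).

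The receptors gave no called stage difference either. With kit class in the fit, the fitted cortical Ntrk2 was lower in early than in control pools in 15 of 17 types. Its median was −0.17, and late against control had a median of 0.00 on the log2 scale. For cortical Ntrk3 the early value was the higher in only 2 of 15 types, with a median of −0.22, and 3 types had an unadjusted p under 0.05 (edgeR). Its median for late against control was −0.05. The types of a pool share its libraries, so these are not independent. Ntrk3 in layer 6b-like cells was −0.47 (SE 0.18) for early against control (edgeR adjusted p = 0.999). No early pool was in the kit class that had low Ntrk2 and Ntrk3, so these fitted values depend on the kit term. Before that adjustment the pools overlapped in reporter-negative excitatory-like cells. There Ntrk2 held 304 and 424 CPM in controls and 393 and 428 in early mice. Ntrk3 held 139 and 165 CPM in controls and 142 and 145 in early mice. The part of the kit in the fitted values was not tested further.

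In the striatum the 46 member tests in 17 types gave 0 calls in each comparison (edgeR; 0.0458%, 0.0320% and 0.0183% of all 152959 tests, in the order early minus control, late minus control, late minus early). Unadjusted p-values under 0.05 numbered 0, 4 and 3 (0%, 8.70% and 6.52%, against 5.44%, 6.16% and 6.88% of all tests), and DESeq2 also called 0. The smallest of these p-values was 0.00339, for Ntf3 in smooth muscle-like cells between late and control (edgeR). Its pools held 30.6 and 49.9 CPM in controls, 32.6 and 36.9 in early and 9.12 and 14.5 in late mice. Both late pools lay below the other 4, with late against control at −1.77 (SE 0.54, edgeR adjusted p = 0.375), and within the batch shared by control 1 and late 1 the values were 30.6 and 9.12 CPM. Late cortical pools of the same type held 13.3 and 19.4 CPM against 22.2 and 30.1 in controls, with a fitted difference that was not called either.

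Ntrk2 in striatal endothelial-like cells turned on 1 pool. Late 1 held 145 CPM while the median pool held 16.4, and in this type the summed level of 7 spiny projection neuron markers reached 3410 CPM in a pool against a median of 309. With all pools late against control was 0.50 (SE 0.85, edgeR adjusted p = 0.986) and was not called. It was 2.74 and passed without control 2 (edgeR adjusted p = 0.00359) and also passed without late 2 (0.00313), settings that leave 1 pool in an arm. The part of spiny neuron RNA was not tested.

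Libraries of trained mice are labelled contralateral or ipsilateral, and these hemispheres were compared within pools over projection neuron types. No member was called in cortex (31 tests, beside 0.00266% of 75282 tests) or striatum (6 tests, beside 0.0260% of 26921), by edgeR or DESeq2. Unadjusted p-values under 0.05 numbered 3 and 0 (9.68% and 0%, against 5.14% and 3.81% of all tests). The cortical ones were Bdnf in layer 2/3-like (−0.18, SE 0.065) and layer 6b-like cells (0.55, SE 0.23) and Ntrk2 in layer 4/5-like cells (−0.22, SE 0.085), contralateral against ipsilateral on the log2 scale. Without early 2 the layer 6b-like Bdnf difference was 0.82 and passed.

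The reporter marks neurons that were active at labelling, and a cell with at least 1 wpre UMI was counted as positive. In the cortex 19.2% of excitatory-like neurons were positive (13.4% to 29.3% by pool), and 5.81% of microglia-like cells (2.43% to 8.82%), at median UMIs of 5282 to 12993.5 and 1336 to 2746. The source of the wpre UMIs in microglia-like cells was not tested.

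Bdnf was higher in reporter-positive cortical neurons in every pool. Negative and positive cells held 146 and 187 CPM in control 1, 164 and 186 in control 2, 147 and 184 in early 1, 173 and 231 in early 2, 163 and 214 in late 1, and 147 and 167 in late 2. The difference was 0.32 (SE 0.029) on the log2 scale, higher in 6 of 6 pools (edgeR with pool as a block, adjusted p = 2.7e-13), and control pools showed it as well as trained ones. Of all 16308 genes 7.30% were called, 712 higher and 478 lower. Positive cells were also deeper in 6 of 6 pools, with median UMIs of 6388 to 15551.5 against 5111 to 11883. With 2 or more wpre UMIs as the limit the difference was 0.57.

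The share of positive cells differed between types. It was highest in the type with the most Bdnf and lowest in the type with the least, and did not follow the Bdnf order in between. Among types rich in Bdnf it was 25.8% in layer 6 intratelencephalic-like, 22.2% in layer 2/3-like, 20.1% in layer 4/5-like, 17.3% in the mixed superficial and 8.87% in layer 5 Fezf2 Bcl11b-like cells. Among types with less Bdnf it was 20.1% in layer 6b-like, 17.6% in corticothalamic-like and 8.62% in near-projecting-like cells. These shares were not adjusted for depth, and a shallow cell has less chance of a wpre UMI. The layer 5 Fezf2 Bcl11b-like cells were shallow, and their share stood beside 5.81% in microglia-like cells, which were shallow too. The order of types at equal depth was not tested. With each pool and type as its own block, a fit added after the data were seen, the Bdnf difference was smaller than with pool alone. It was 0.15 (SE 0.034, edgeR adjusted p = 0.00295, beside 3.74% of 13245 genes called). Fitted 1 type at a time, also added later, 1 of 24 member tests was called, beside 0.621% of 66701 tests.

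That call was Bdnf in corticothalamic-like cells. Negative and positive cells held 53.3 and 69.2 CPM (control 1), 50.4 and 73.2 (control 2), 66.4 and 70.3 (early 1), 73.6 and 139 (early 2), 62.3 and 58.8 (late 1), and 76.0 and 91.7 (late 2). Positive cells were higher in 5 of 6 pools, with a difference of 0.36 (SE 0.073, edgeR adjusted p = 0.00102). Layer 6b-like cells had a larger but less certain difference of 0.70 (SE 0.19, adjusted p = 0.265), the mixed superficial cells 0.23 (SE 0.059, adjusted p = 0.0523) and layer 6 intratelencephalic-like cells 0.16 (SE 0.056, adjusted p = 0.592). Layer 2/3-like cells were at 0.05 (adjusted p = 0.743). Layer 4/5-like cells went the other way by fitted value, at −0.16 (SE 0.10, edgeR adjusted p = 0.906), with positive cells higher in 2 of 5 pools. Near-projecting-like cells, which were not fitted, were higher in positive cells in 0 of 2 pools. Whether the difference is unequal between types was not tested.

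**Figure D3:**
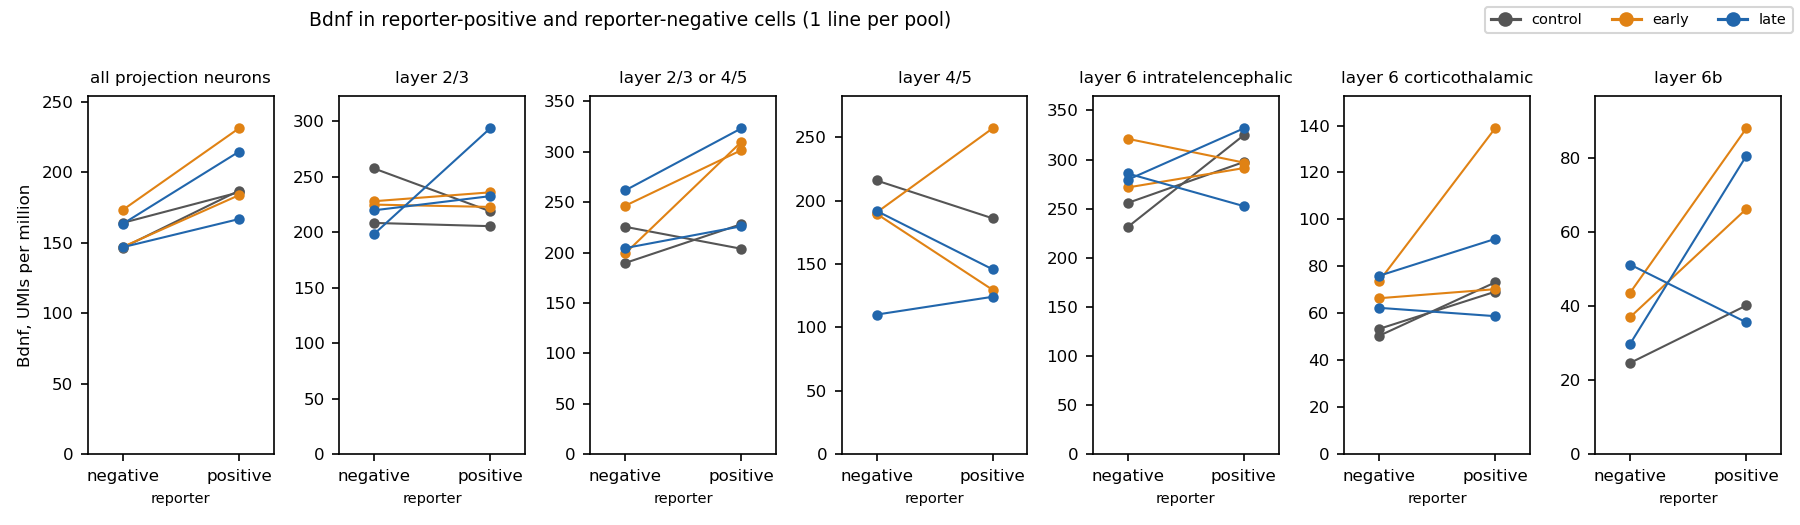
Bdnf level (CPM) in reporter-negative and reporter-positive cortical neurons, with a line joining the states of each pool, coloured by stage, for all excitatory-like neurons and for 6 types (pools with enough cells in both states). Over all excitatory-like neurons the 6 lines rise, from 146 to 173 CPM in negative cells to 167 to 231 CPM in positive cells.

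No other member was called by reporter state in cortex. Ntrk2 was at −0.00, Sort1 at −0.02 and Ntrk3 at 0.06 on the log2 scale (edgeR adjusted p = 0.248 for Ntrk3). In striatal spiny projection neurons, 18.7% were positive beside 5.50% of microglia-like cells. None of the 3 members tested was called by edgeR, beside 0.414% of 14258 genes, and 0 had an unadjusted p under 0.05, beside 6.89% of all genes. Ntrk2 was at 0.04 with a 95% interval of −0.00 to 0.09. Of 18 activity-regulated genes, 13 were higher in positive striatal cells (median 0.22, all genes 0.00), those with the smallest p being Egr4 (0.25), Junb (0.24), Fos (0.26), Fosb (0.29) and Btg2 (0.45). In cortex 6 of 18 were higher (median 0.06, all genes 0.00), those with the smallest p being Egr4 (0.24), Nptx2 (0.26), Junb (0.16), Inhba (0.29) and Nr4a2 (0.19). Fos drives the cortical reporter line and Arc the striatal one. Of the other lists in cortex, 1 of 5 ligand and receptor genes, 2 of 11 processing genes, 2 of 45 Trk signalling genes and 3 of 12 p75 partners were called, beside the 7.30% of all genes. Sorcs3, a sortilin-family receptor, was higher (0.16), Cadps2, a factor of dense-core vesicle release, was lower (−0.14), and Pcsk2, a prohormone convertase, was higher (0.07). The Trk signalling genes Map2k1 and Hras (0.07 each) and the p75 partners Lingo1 (0.11), Bex3 (0.07) and Rtn4r (0.10) were higher as well.

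D1-like and D2-like neurons were compared within pools. Ntrk2 in D1-like cells was 317, 421, 394, 458, 248 and 456.97 CPM (control 1 and 2, early 1 and 2, late 1 and 2), and in D2-like cells 337, 463, 439, 518, 259 and 491 CPM. D2-like cells were higher in 6 of 6 pools, although the range over pools was wider than the gap. The D1 minus D2 difference was −0.17 (SE 0.021, edgeR adjusted p = 1.5e-09), and 28.0% of all 15530 genes were called. Sort1 went the other way, with 116, 113, 127, 116, 119 and 119 CPM in D1-like and 102, 94.7, 113, 96.6, 98.9 and 93.2 CPM in D2-like cells. It was higher in D1-like cells in 6 of 6 pools, by 0.21 (SE 0.032, adjusted p = 2.9e-07). Ntrk3 differed by 0.05 (95% interval −0.00 to 0.10, adjusted p = 0.161). These were 2 calls among 3 members tested.

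The sortilin relatives moved further between these types than Sort1 did by fitted value. All 4 tested genes of the list of other ligands and receptors were called (edgeR), with Sorcs2 at −0.58, Sorcs3 at −0.79 and Sorl1 at −0.35, all higher in D2-like cells, and Sorcs1 at 0.30. The list's median was −0.46, against −0.01 for all genes. Of 10 processing and release genes 3 were called, with Serpine2, a plasminogen-activator inhibitor, at 0.94, Furin, which cleaves pro-neurotrophins, at −0.45 and Pcsk2 at −0.13. Among 44 Trk signalling genes 7 were higher and 7 lower in D1-like cells (median −0.02), and of 11 p75 partners 2 were higher and 2 lower. The background for these 3 lists is the 28.0% of all genes called in the same comparison. Of the activity-regulated list, 14 of 18 were lower and 3 higher in D1-like cells (median −0.79), those with the smallest p being Fos at −1.66, Nr4a1 at −0.87, Egr1 at −0.80, Junb at −1.03 and Egr4 at −0.78.

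**Figure D4:**
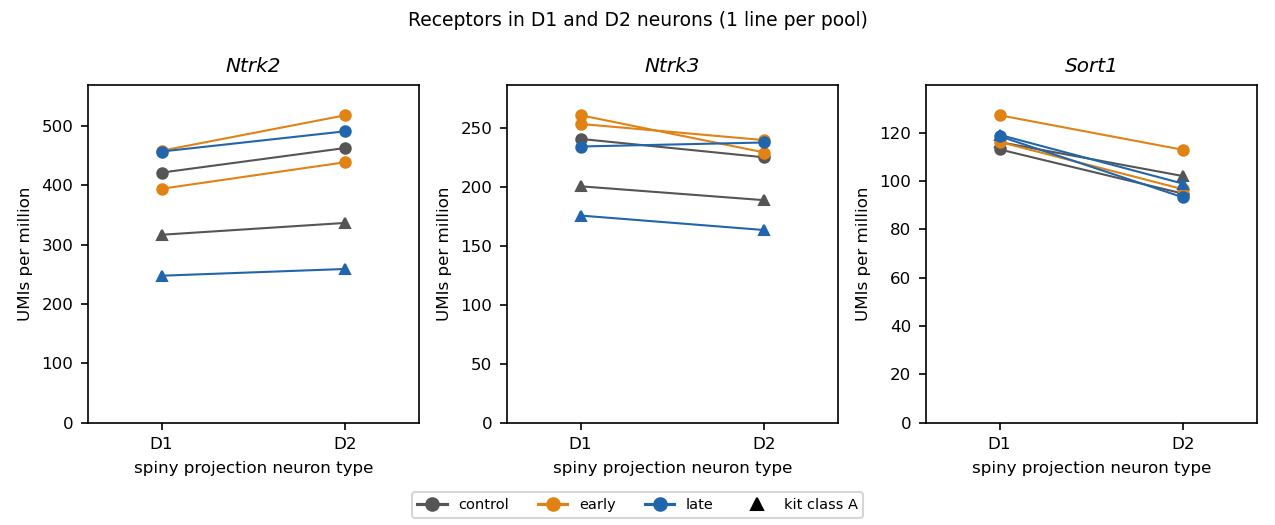
Ntrk2, Ntrk3 and Sort1 (CPM) in D1-like and D2-like neurons, with a line joining the types of each pool. Ntrk2 is higher in D2-like cells and Sort1 in D1-like cells in all 6 pools.

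Cell types found in both regions were compared over 12 pools, with stage and kit class in the fit (30 member tests, 9 called by edgeR, beside 8.91% of all 76317 tests). All 9 were in 3 types. In astrocyte-like cells, where 31.1% of 10254 genes were called, 4 members differed. Ntrk3 held 59.1, 53.0, 52.4, 49.5, 37.0 and 44.5 CPM in cortex and 9.96, 28.8, 22.4, 21.5, 19.1 and 28.7 CPM in striatum, in the order control, early and late. The regions did not overlap, and the difference was 1.08 (SE 0.18, adjusted p = 3.6e-05, cortex minus striatum on the log2 scale). Ntrk2 held 1038, 1202, 1025, 1175, 1072 and 1216 CPM in cortex and 1317, 1647, 1665, 1881, 1323 and 1832 CPM in striatum. All cortical pools lay below all striatal ones, by −0.53 (SE 0.15, adjusted p = 0.00745). Sort1 was at −0.56 (SE 0.15, adjusted p = 0.00397). Bdnf was at 1.09 (SE 0.34, adjusted p = 0.0141), with overlapping pools, and the excitatory marker sum moved with it (34.0 to 156 CPM in cortex, 0 to 3.29 in striatum). The part of that RNA in the Bdnf value was not tested.

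In SST-like interneurons, where 28.9% of 10290 genes were called, Ntrk3 was lower in cortex. The pools held 18.2, 48.7, 35.5, 35.1, 34.3 and 53.6 CPM in cortex and 88.6, 124, 137, 113, 79.5 and 74.8 CPM in striatum, without overlap (−1.59, SE 0.16, edgeR adjusted p = 8.7e-09). Ntrk2 was higher in cortex by 0.53 (SE 0.12, adjusted p = 0.000926) and Sort1 by 0.45 (SE 0.16, adjusted p = 0.0394), and neither passed without the kit covariate. Bdnf was called as well, with 11.3, 12.2, 0.845, 1.35, 17.8 and 4.87 CPM in the cortical pools and a UMI in only 1 striatal pool (0.771 CPM). The fitted difference was 4.76 (SE 0.77, edgeR adjusted p = 1.7e-05), a value that depends on the prior count at such low counts. Summed over pools it had 37 of 4835847 UMIs in cortex and 1 of 6931566 in striatum, a ratio of 53.0 (exact 95% interval 8.95 to 2151, counting error only). Excitatory marker sums in these cells were 13.5 to 74.9 CPM in cortex and 0 to 2.64 CPM in striatum.

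In smooth muscle-like cells Bdnf was the only member called, beside 0.854% of 6439 genes. The 6 cortical pools held 44.5, 41.3, 33.3, 30.0, 42.7 and 32.4 CPM and the striatal ones 7.65, 9.98, 6.12, 22.1, 27.4 and 12.4 CPM, without overlap (1.33, SE 0.31, edgeR adjusted p = 0.0344). It did not pass without the kit covariate. The excitatory marker sum was also higher in cortex, at 23.8 to 86.9 CPM against 0 in every striatal pool, and the part of that RNA was not tested. Ntf3 in the same cells differed by 0.03 (95% interval −0.53 to 0.59). In oligodendrocyte precursor-, fibroblast-, microglia-, pericyte- and endothelial-like cells no member was called.

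Pools of the 2 regions shared a batch name in early 2 and in late 2. Within these, Ntrk3 in astrocyte-like cells was 49.5 against 21.5 and 44.5 against 28.7 CPM (cortex against striatum), Ntrk2 was 1175 against 1881 and 1216 against 1832, and Ntrk3 in SST-like cells was 35.1 against 113 and 53.6 against 74.8. Bdnf in smooth muscle-like cells was 30.0 against 22.1 and 32.4 against 12.4 CPM. Bdnf in astrocyte-like cells was 29.7 against 13.5 in early 2 and 7.85 against 7.84 in late 2.

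**Figure D5:**
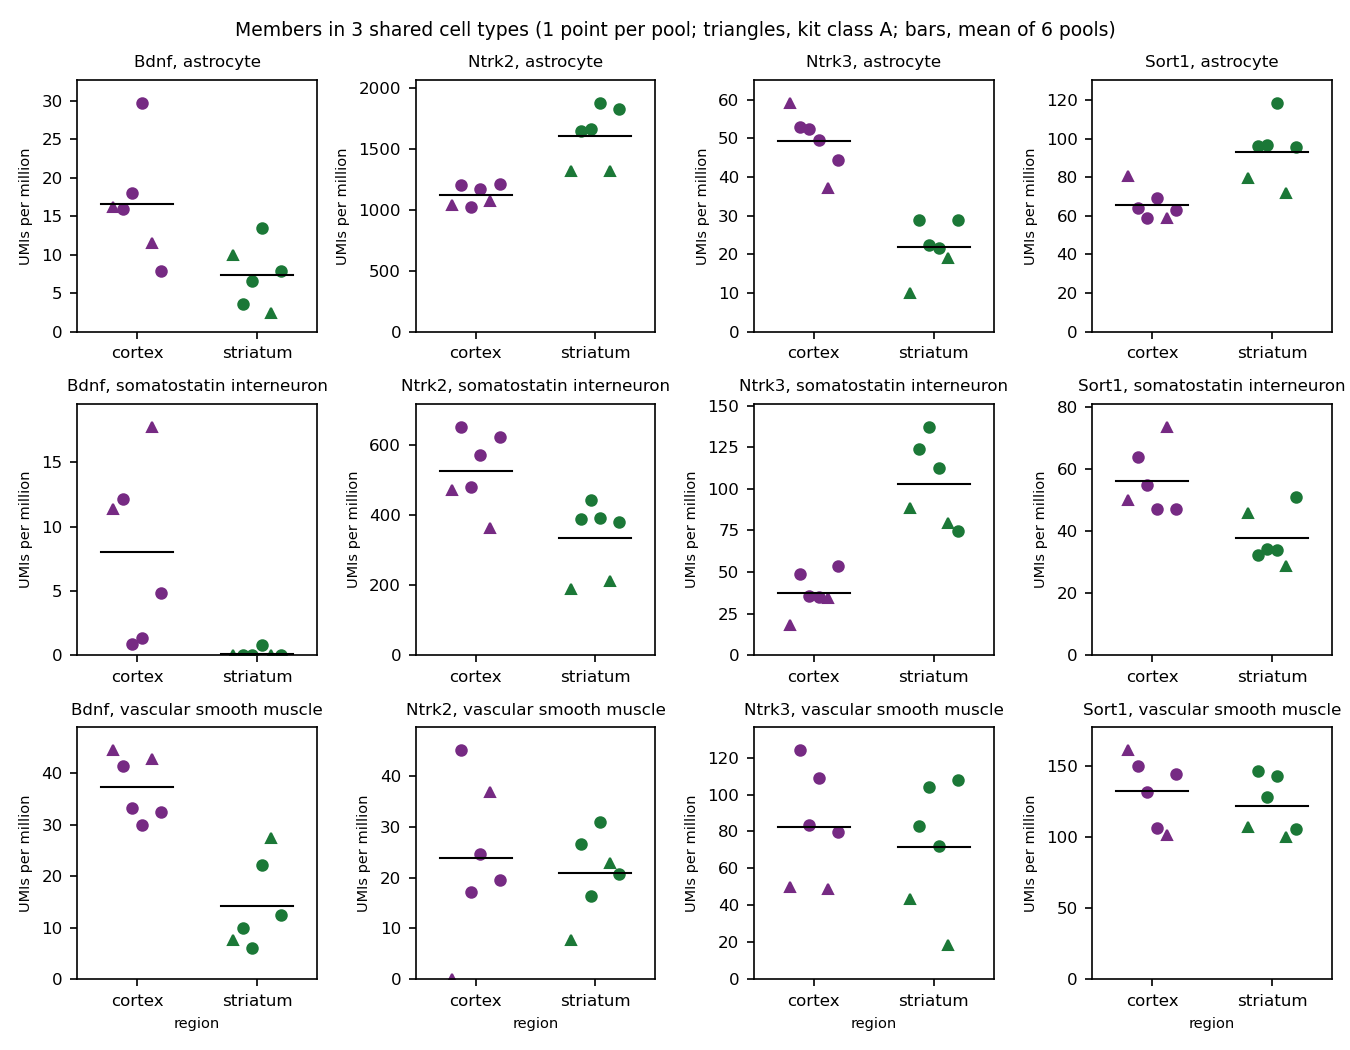
Level (CPM) of Bdnf, Ntrk2, Ntrk3 and Sort1 in astrocyte-like, SST-like and vascular smooth muscle-like cells of motor cortex and dorsal striatum, with 1 point per pool, triangles for the first kit class and a bar at the mean of 6 pools. Astrocyte-like Ntrk3 is 37.0 to 59.1 CPM in cortex and 9.96 to 28.8 CPM in striatum.

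The 5 lists of pathway genes held 33 to 726 tests each in a region and stage comparison, beside 0.0115% to 0.0458% of all tests called. In them 1 test was called, that of Fosb in striatal parvalbumin-like cells for early against control (−0.87, edgeR adjusted p = 0.0363), which was 1 of the 229 tests of the activity-regulated list there. Between regions, where 8.91% of all tests were called, 5 of 14 tests of other ligands and receptors were called, 9 of 69 of processing and release, 15 of 328 of Trk signalling, 11 of 75 of p75 partners and 28 of 132 of activity-regulated genes (21.2%, 12 higher and 16 lower in cortex). On the cortex minus striatum scale, the 5 called ligand and receptor tests were Sorl1 at 0.65 in SST-like and 0.74 in astrocyte-like cells, Sorcs1 at −1.25 and Sorcs3 at 1.85 in SST-like cells, and Sorcs2 at 0.48 in astrocyte-like cells. The processing genes with the smallest p were Hap1 at −1.48, Pcsk5 at 3.78, Cadps2 at −2.37 and Serpine2 at 1.64 in SST-like cells and Cpe at −1.36 in astrocyte-like cells. All these named calls were in SST-like and astrocyte-like cells, where 28.9% and 31.1% of all genes were called. The 8.91% over all shared types is therefore a low background for them, and the lists were not counted type by type.

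The genes with patterns most like each member were found by correlation of log2 levels over 46 types of both regions among 14507 genes. The types share pools and depth, so no p is given. For Bdnf they included Sstr3 (r = 0.896), Ovol2 (0.892), 9130024F11Rik (0.877) and Slc17a7 (0.873). For Ntf3 they were Hspb7 (0.955), Gm34829 (0.947), Olfr78 (0.943), Xirp1 and Myocd (0.934). For Ntrk2 they were Dtx1 (0.919), Ctnnd2 (0.902), 1500009C09Rik (0.896), Trim9 (0.886) and Dclk1 (0.883). Ntrk3 (Ntm at 0.788), Ngfr (Kl at 0.739) and Sort1 (Rasl11b at 0.760) had weaker closest genes.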

How the data were processed

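Per the labels' protocols, papain-dissociated tissue was depleted of dead cells and sequenced with 10x Genomics 3′ kits. UMI counts per gene and cell were deposited by the authors as 1 matrix per library, made with Cell Ranger 3.1.0 against GRCm38 (mm10) per the submitters' processing notes, while the file headers give software version 3.0.2. Cells needed 500 genes, 1000 UMIs and at most 20% mitochondrial UMIs, and the top 0.8% of Scrublet scores per 1000 barcodes were removed as doublets. Cells were clustered in scanpy 1.11.5 on 2000 variable genes without the members and pathway genes, and clusters were named from fixed markers by rules tuned after the clusters, but no outcome, were seen. Counts were summed per pool and type and tested in edgeR 4.0.16 (TMM, filterByExpr, quasi-likelihood, R 4.3.3), with Benjamini-Hochberg adjustment over all genes of a type and comparison and calls under 0.05. DESeq2 1.42.0 was an alternative. The 6 members are reported whatever their values, and other genes come from 5 fixed lists, named only if called, at most 5 a list and comparison, by smallest adjusted p. The members and lists were chosen with earlier results of these data known. The stage fit was tested on counts simulated from the 6 cortical pools of corticothalamic-like cells (13901 genes), early against control. Changes were placed only in genes with higher counts, with 1 fixed spread for all genes and no kit effect. The fit recovered 56% of changes of 1 and 99% of changes of 2 on the log2 scale. Changes in types with fewer cells or in genes with fewer counts were not simulated. One gene among those closest to Bdnf is not reported here.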

Additional observations from a re-analysis of the deposited data

Results flagged for a closer look

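Ngfr in striatal cholinergic-like interneurons had 1 pool far from the other 5. Control 1 stood at 129.3 CPM, with 61 UMIs in 2 of its 28 cells and 34 in one of them. Of 12 leading cell types examined in this way 1 was so marked, and chance marks about 5% of groups.

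The difference between stages varied with the excitatory type for Nr4a2, an activity-regulated transcription factor on the fixed list (edgeR, all type by stage terms, adjusted p = 0.0329, 6 pools). It did not pass without control 2 (0.0508), early 1 (0.841) or early 2 (0.277), or without the layer 5 Fezf2 Bcl11b-like type (0.129). Over the 8 alternatives the adjusted p ran from 2.3e-05 to 0.841.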

How the results depend on the processing

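No paired analysis was possible because, for the stage comparisons, the pool numbers were given in accession order and pair nothing, and the batch names of the labels tie only 1 pair of pools a region between control and early, 1 between control and late and none between early and late, while the hemisphere, reporter and D1 against D2 comparisons already carry the pool as a block. With 2 pools a stage and 2 residual degrees of freedom, the stage counts moved widely, and the cause was not tested. In cortex 37, 38 and 21 genes were called (early minus control, late minus control, late minus early), and these became 0, 3 and 0 with DESeq2, 244, 783 and 282 without the count filter and 1, 0 and 0 without the kit covariate. RLE size factors gave 23 and the stricter cell filter 8 for early against control, and that filter gave 10 for late against early. In striatum 70, 49 and 28 became 39, 15 and 15 with DESeq2, 763, 1041 and 1008 without the filter and 2, 0 and 1 without the kit covariate. Leaving out 1 pool, which leaves 1 residual degree of freedom and assumes that a lone pool varies like the rest, gave 72 to 301, 154 to 1345 and 115 to 389 in cortex and 192 to 1470, 296 to 2372 and 73 to 1876 in striatum. Among members these fits called 0 to 2 (late against control) and 0 to 3 (late against early) striatal tests, namely Ngfr in cholinergic-like cells and Ntrk2 and Ntrk3 in endothelial-like cells. Without the filter 1 and 1 were called, both Ngfr in cholinergic-like cells.

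Hemisphere calls were 0 and 0 with DESeq2 and 2 to 8 (striatum) and 3 to 31 (cortex) with a pool left out, with 0 to 1 cortical member test. The type by stage count was 5 without the layer 5 Fezf2 Bcl11b-like type and 5 to 564 with a pool left out, with 0 to 2 members (Bdnf without late 1, Bdnf and Sort1 without late 2). Reporter counts were 106 in striatum at 2 or more wpre UMIs, 495 in cortex within pool and type, and 41 to 61 and 784 to 1385 with a pool left out. Without the kit covariate the region count was 4043. Thinning to 1000 UMIs lowered the share of cells with a UMI to 1.24% (Bdnf, striatal smooth muscle-like), 22.5% (Bdnf, layer 6 intratelencephalic-like), 82.4% (Ntrk2, ependymal-like), 65.2% (Ntrk2, cortical astrocyte-like), 20.4% (Ntrk3, D1-like), 21.6% (Ntrk3, layer 2/3-like), 11.1% (Sort1, striatal smooth muscle-like) and 19.6% (Sort1, layer 2/3-like).

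No called member value changed direction under the alternatives run. Uncalled reporter differences near 0 changed sign, for example cortical Ntrk3 from 0.06 to −0.055 within pool and type, cortical Sort1 from −0.02 to 0.04 at 2 or more wpre UMIs and striatal Ntrk3 from 0.00 to −0.01 without control 2. A chosen set of the named single-gene values was followed, each through 2 to 11 alternatives. Endothelial-like Ntrk2, hemisphere Bdnf and type by stage Bdnf, whose calls changed with a pool left out, were not in that set. Neither was the reporter call of Bdnf in corticothalamic-like cells. The tally that follows therefore leaves out values known to have moved. Of these checks 95 kept their side of the threshold and 3 lost the call. Most of the 95 were checks of values that were not called in the main fit. The calls gained with a pool left out are those given above. The 3 were Ntrk2 (0.52) and Sort1 (0.44) in SST-like and Bdnf (1.36) in smooth muscle-like cells, of the 9 calls between regions, all without the kit covariate.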
